A study of Homo sapiens with 6 samples.

Results

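MicroRNA host lncRNA genes are long noncoding RNA genes named for the microRNA whose precursor lies within them. They were chosen as genes of the lncRNA class in GENCODE release 44 whose symbol starts with MIR and ends with HG, which gave 83 of the 60664 genes of the count table, and an annotated microRNA gene lay inside 81 of them on the same strand. U-2 OS, a human osteosarcoma line labelled polyploid, was transfected either with control siRNA (siCTRL) or with 30 nM of an siRNA against SFPQ (siSFPQ), and its RNA was sequenced. Both groups had 3 replicates, called biological replicates in the study, and differed only in the siRNA. The libraries were made from poly(A) RNA, so the values describe host transcripts and not mature microRNAs, which were not measured. U-2 OS is 1 tumour line, and the knockdown acted on the whole culture.

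A primary microRNA transcript is cut in the nucleus by DROSHA with its partner DGCR8, the hairpin is exported by XPO5, and DICER1 releases the mature microRNA, which an Argonaute protein then carries to its targets. Targets are recognized mainly by the seed, bases 2 to 8 of the mature sequence, so that microRNAs with the same seed can bind the same sites. Many host genes are lncRNA genes with long introns, and the hairpin can lie in an exon or in an intron of the host. SFPQ is an RNA- and DNA-binding protein of the DBHS family, with roles in splicing, in transcription and in nuclear paraspeckles, and it has been described as needed for the transcription of long genes.

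RefSeq (GRCh38.p14) gave 130 mature microRNA sequences inside and on the strand of 47 of the 51 host genes that could be tested, and these hold 109 different seeds, of which 9 occurred in more than 1 host. The sequences below are those whose hosts carry the results. Capitals mark the seed. The first group is the let-7 family, whose seed GAGGUAG was spread over 6 hosts, more than any other seed.
hsa-let-7a-5p: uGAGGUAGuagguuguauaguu
hsa-let-7b-5p: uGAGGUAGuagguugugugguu
hsa-let-7c-5p: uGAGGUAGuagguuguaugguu
hsa-let-7i-5p: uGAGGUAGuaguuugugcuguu
hsa-miR-4458: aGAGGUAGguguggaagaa

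The next sequences belong to the miR-99/100 and miR-125 families, which lie beside let-7 copies in both MIR100HG and MIR99AHG, and to the miR-181 family, which is shared by MIR181A1HG and MIR181A2HG.
hsa-miR-100-5p: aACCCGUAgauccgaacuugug
hsa-miR-99a-5p: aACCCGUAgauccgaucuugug
hsa-miR-125b-5p: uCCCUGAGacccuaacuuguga
hsa-miR-181a-5p: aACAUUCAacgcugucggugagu
hsa-miR-181b-5p: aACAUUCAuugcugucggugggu

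The last group comes from single hosts that changed most at a level of at least 1 CPM (counts per 1000000 counts of the library), or that rose most at a high level.
hsa-miR-4435: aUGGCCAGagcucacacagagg
hsa-miR-193b-3p: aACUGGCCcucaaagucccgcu
hsa-miR-365a-3p: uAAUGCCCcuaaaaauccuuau
hsa-miR-924: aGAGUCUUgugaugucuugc
hsa-miR-34a-5p: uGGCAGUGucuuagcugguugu

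On GRCh38.p14, miR-4435 lies at chr2:111321061-111321082 (minus strand) in an exon of MIR4435-2HG, and miR-34a-5p at chr1:9151735-9151756 (minus strand) in an exon of MIR34AHG. By contrast, miR-193b-3p at chr16:14304017-14304038 (plus strand) and miR-924 at chr18:39622153-39622172 (minus strand) lie outside every annotated exon of their hosts.

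Libraries held between 43469321 and 47119203 counts, at which 3 counts, taken here as the floor, amount to 0.0637 to 0.069 CPM; these limits cover counting error only. SFPQ itself fell from 22338, 23139 and 21753 counts in siCTRL replicates 1, 2 and 3 to 3140, 3863 and 3151 in siSFPQ, a log2 fold change of -2.73 ± 0.0498 (SE). Its partner NONO had a log2 fold change of 0.03 (edgeR adjusted p = 0.504), and PSPC1, the other DBHS protein, rose by 1.13 (edgeR adjusted p = 2.28e-21). Mesenchymal markers summed to 6077 to 6301 CPM in siCTRL and 5665 to 5707 CPM in siSFPQ. That sum was mainly COL1A1, SPARC and VIM, at means of 2588, 2097 and 1042 CPM. COL1A2 (0.964 CPM) and ALPL (3.43 CPM) lay below the epithelial marker EPCAM (4.79 CPM). Among the mesenchymal markers CDH2 (-1.08) and SPP1 (-1.33) fell most, while VIM rose by 0.32. Epithelial markers summed to at most 6.92 CPM, endothelial to at most 1.91 CPM and leukocyte to at most 0.940 CPM in any library. In bulk RNA, fewer cells with a transcript cannot be told apart from less transcript per cell.

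Of the 83 host genes, 74 had a count in at least 1 library and 9 were at 0 in all of them. Spans from start to end, introns included, ran from 0.949 to 897 kb with a median of 25.1 kb, with 27 genes under 10 kb, 32 of 10 to 100 kb and 24 over 100 kb. At least 10 counts over all libraries were found for 51 hosts, and these entered the quasi-likelihood test of edgeR, whose p-values were adjusted after Benjamini-Hochberg over the 29022 genes that passed the same filter. The 32 others, on which nothing further rests, were not tested. A mean of at least 1 CPM was reached by 27 of the tested hosts.

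Of the 51 tested hosts, 10 were higher and 17 lower in siSFPQ at an adjusted p under 0.05. The same call fell on 22.4% (higher) and 22.1% (lower) of all genes tested, and on 17.1% and 12% of the 7139 other lncRNA genes tested. The count of higher hosts depended on the libraries and the tool, with 5 without siCTRL replicate 3, 6 without siSFPQ replicate 1, 6 without siSFPQ replicate 2 and 4 with DESeq2, while the count of lower hosts stayed between 16 and 18 in these fits. The median log2 fold change of the tested hosts was -0.01, beside 0.02 for all genes. In normalized counts the groups did not overlap in 29 of the 51, 12 higher and 17 lower in siSFPQ, beside 52.3% of all genes and 39.6% of other lncRNA genes.

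Levels were then considered separately. Among the 27 hosts of at least 1 CPM, 5 were higher and 14 lower with a median log2 fold change of -0.33, where 30.2% of all genes at that level were higher and 34.4% lower, and 29.7% and 25.3% of other lncRNA genes. Among the 24 tested hosts under 1 CPM, 5 were higher and 3 lower, with a median of 0.30; over all genes under 1 CPM, 13.4% were higher and 7.75% lower, with a median of 0.17. Past a log2 fold change of 1.5 in either direction there were 4 higher hosts, all under 1 CPM, and 5 lower hosts, 3 of them at 1 CPM or more, where the backgrounds were 5.54% and 4.77% of all genes and 8.98% and 5.52% of other lncRNA genes. At 1 CPM or more, 1.8% of all genes were higher and 4.13% lower past that fold, beside 0 and 3 of the 27 hosts. Under 1 CPM, 1326 of 13308 tested genes with an annotated span were higher and 733 lower past it. Of the 24 hosts at that level, 4 were higher and 2 lower past it. The 4 higher hosts became 2 without siSFPQ replicate 1, 2 or 3 alike. MIR133A1HG, MIR31HG and MIR4280HG reached the filter of 10 counts only through the group where they were high. For them the filter and the large fold are therefore not independent. The difference between the level classes itself was not tested.

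**Figure D1:**
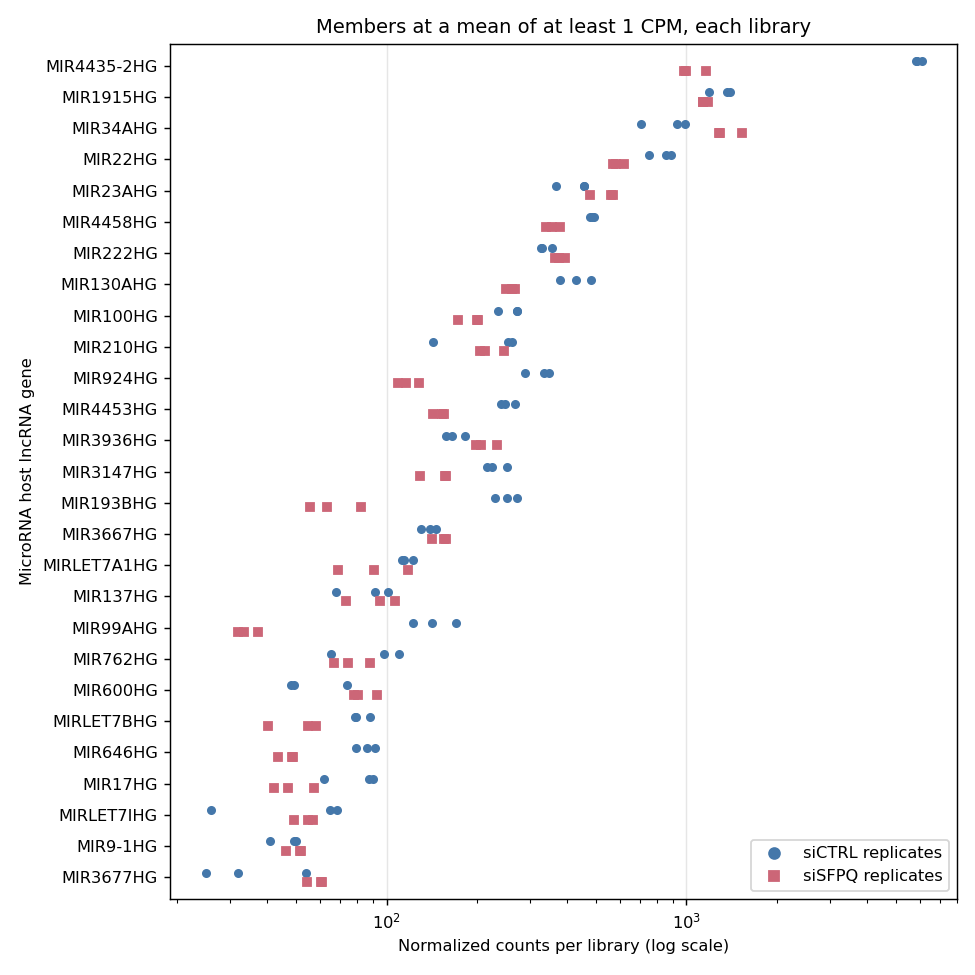
Normalized counts (log axis) of the 27 microRNA host lncRNA genes with a mean of at least 1 CPM, 1 point per library, circles for siCTRL and squares for siSFPQ, ordered by mean CPM. MIR4435-2HG lies far above all others in siCTRL and shows the widest separation among the 5 most abundant hosts, while MIR34AHG, MIR23AHG and MIR600HG lie to the right in siSFPQ.

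MIR4435-2HG (ENSG00000172965, chr2:111006015-111523376, minus strand, 517 kb), a host lncRNA of miR-4435 that has been studied in tumours, carried 43.4% of all counts on host genes in siCTRL. It had 5802, 6082 and 5857 counts in siCTRL and 967, 1006 and 1175 in siSFPQ. The groups stand far apart and each is tight, with normalized counts of 5923 ± 141 and 1047 ± 97.3 (SD, n = 3). The log2 fold change was -2.50 ± 0.051 (SE), a 5.66-fold lower count (edgeR adjusted p = 1.3e-28). Its share of host counts was 13.1% in siSFPQ. The sum over all 83 hosts was 294, 289 and 292 CPM in siCTRL and 184, 176 and 177 CPM in siSFPQ, and without MIR4435-2HG it was 168, 160 and 167 CPM against 162, 154 and 151 CPM, so that most of the difference in the sum came from this 1 gene.

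A near-identical copy of part of MIR4435-2HG makes its level uncertain. Of its exon 50-mers, 48.0% occurred again elsewhere in the genome and 44.8% inside CYTOR (ENSG00000222041, chr2:87454781-87636740, 182 kb), an lncRNA gene of the duplicated locus; NCAL1, which overlaps CYTOR, held 46.5%. NCAL1 had 20, 9 and 9 counts in siCTRL and 7, 9 and 5 in siSFPQ (-0.85, edgeR adjusted p = 0.249). CYTOR, like NCAL1 named here after the values were seen, had 1580, 1511 and 1553 counts in siCTRL and 1180, 1181 and 1142 in siSFPQ. CYTOR and MIR4435-2HG were thus both lower, CYTOR by a log2 fold change of -0.41 ± 0.0552 (edgeR adjusted p = 1.41e-07) and MIR4435-2HG by more, and how reads matching both were assigned is not given in the sources used here. Over 10% of exon 50-mers were repeated in 3 of the 27 hosts of at least 1 CPM, the others being MIR3677HG and MIR193BHG.

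Within the 517 kb, the genes counted beside the host did not all move with it. ENSG00000271590, an lncRNA gene on the same strand, had 52, 27 and 25 counts in siCTRL and 0, 1 and 1 in siSFPQ. The processed pseudogene ENSG00000227992, also on that strand, had 132, 101 and 117 against 0, 3 and 0, and the opposite-strand lncRNA gene ENSG00000230499 had 63, 58 and 46 against 0 in each library. All 3 lie 311 to 327 kb from the host's start and were close to the floor after knockdown. BCL2L11, which encodes the pro-apoptotic protein BIM and lies 355 to 404 kb along on the opposite strand, had a log2 fold change of only -0.16 ± 0.0526 (edgeR adjusted p = 0.0128). The study describes the libraries as stranded, but strand use in the counting is not given in the sources used here. In these counts, reads of opposite-strand neighbours can therefore not be told apart from those of the host where their exons overlap.

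The other 2 hosts at 1 CPM or more past both thresholds were MIR99AHG and MIR193BHG. MIR99AHG (ENSG00000215386, chr21:15928296-16646364, plus strand, 718 kb), host of miR-99a, let-7c and miR-125b, had 122, 142 and 170 counts in siCTRL and 31, 38 and 34 in siSFPQ. Its log2 fold change was -2.08 ± 0.196 (edgeR adjusted p = 7.33e-11), with no overlap between the groups. MIR193BHG (chr16:14301389-14331067, plus strand, 29.7 kb), host of miR-193b and miR-365a, had 230, 273 and 252 counts against 80, 57 and 64. It changed by -1.91 ± 0.152 (edgeR adjusted p = 1.21e-12), the largest fall at this level outside the genes over 100 kb.

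Across the 6 hosts that share the let-7 seed, the log2 fold changes ran from -2.08 to 0.01. MIR100HG (chr11:122028325-122556721, minus strand, 528 kb), which carries miR-100, let-7a and miR-125b in the same arrangement as MIR99AHG, had 272, 236 and 271 counts in siCTRL and 194, 206 and 176 in siSFPQ. That was a log2 fold change of -0.44 ± 0.116 (edgeR adjusted p = 0.00213), against -2.08 for MIR99AHG, and no test was made between the genes. MIR4458HG (36.2 kb) had 491, 476 and 483 counts against 366, 347 and 361, also without overlap, and fell by 0.44 on the log2 scale (edgeR adjusted p = 9.58e-05). MIRLET7BHG, host of let-7a and let-7b, went from 88, 79 and 78 counts to 53, 41 and 59 (log2 fold change -0.68, edgeR adjusted p = 0.00795), but its adjusted p was 0.0574 without siSFPQ replicate 2. The let-7a, let-7f and let-7d host MIRLET7A1HG overlapped between the groups, with 122, 114 and 112 counts in siCTRL and 114, 93 and 70 in siSFPQ (-0.33, edgeR adjusted p = 0.132; 0.0383 without siSFPQ replicate 1). In MIRLET7IHG the siCTRL counts of 26, 65 and 68 enclosed the siSFPQ counts of 53, 58 and 50, and its log2 fold change of 0.01 ± 0.264 turned to -0.31 without siCTRL replicate 1. So 4 of the 6, all of them at 1 CPM or more, were lower, 2 did not pass the test, and none was higher. Of all genes at that level, 34.4% were lower and 30.2% higher. MIR99AHG and MIR100HG exceed 100 kb, where 62.3% of all genes at that level were lower. MIR4458HG and MIRLET7BHG span 10 to 100 kb, where 30.04% were lower.

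Hosts of microRNAs known for roles in growth control and stress moved both ways. MIR34AHG (chr1:9148011-9198906, minus strand, 50.9 kb), host of the p53 target miR-34a, had 926, 704 and 985 counts in siCTRL and 1485, 1309 and 1307 in siSFPQ, so that every siSFPQ library lay above every siCTRL library. It rose by a log2 fold change of 0.65 ± 0.0831 (edgeR adjusted p = 6.03e-08) and had the highest count among the hosts that rose. The antisense gene LNCTAM34A, which shares 431 exon bases with it, had a log2 fold change of 0.04 (edgeR adjusted p = 0.86). MIR22HG (5.73 kb), a stress-responsive host of miR-22, had 888, 750 and 855 counts against 601, 593 and 575 and fell by 0.50 (edgeR adjusted p = 1.66e-06). MIR17HG, host of the miR-17 to miR-92a cluster that MYC activates, went from 87, 62 and 90 counts to 41, 48 and 58 (-0.71, edgeR adjusted p = 0.00818), although its adjusted p was 0.061 without siSFPQ replicate 1.

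MIR23AHG (19.0 kb), host of the miR-23a, miR-27a and miR-24 cluster, had 455, 366 and 455 counts in siCTRL and 551, 571 and 483 in siSFPQ, a log2 fold change of 0.33 ± 0.0938 (edgeR adjusted p = 0.00455). In MIR130AHG the counts were 377, 427 and 480 against 255, 274 and 254, a fall of 0.72 (edgeR adjusted p = 4.33e-07). YPEL4, which lies inside MIR130AHG on the opposite strand and shares 197 exon bases, rose by 0.90. MIR222HG, host of miR-221 and miR-222, had 328, 328 and 355 counts against 364, 403 and 370; the groups did not overlap but the change of 0.16 did not pass the test (edgeR adjusted p = 0.164). The hypoxia-induced host MIR210HG had 143, 255 and 262 counts against 238, 218 and 208, with a log2 fold change of 0.01 ± 0.149, and siCTRL replicate 1 was the low library, as it was for MIRLET7IHG; without it the value was -0.23 (edgeR adjusted p = 0.118).

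MIR137HG (116 kb), host of miR-137, a microRNA known from neural tissue, had 101, 68 and 91 counts in siCTRL and 92, 75 and 108 in siSFPQ (0.08 ± 0.189, edgeR adjusted p = 0.789). It overlaps DPYD on the same strand and shares 494 exon bases with it, and DPYD, the enzyme that breaks down uracil, fell by 1.74 (edgeR adjusted p = 5.8e-15). The log2 ratio of MIR137HG to DPYD counts was -2.12, -2.91 and -2.29 in siCTRL and -0.47, -0.83 and -0.56 in siSFPQ, so the pair changed unequally in every library. Of the hosts of miR-9, also known from neural tissue, 1 of 2 passed the test, since MIR9-1HG had 50, 41 and 49 counts against 50, 53 and 47 (0.09, edgeR adjusted p = 0.79) and MIR9-3HG had 21, 21 and 18 against 29, 37 and 48 (0.91, edgeR adjusted p = 0.0195). That the 2 changes differ was not tested.

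For the remaining hosts of at least 1 CPM, the microRNA has no role that is well settled. MIR924HG (chr18:39206917-39800322, minus strand, 593 kb) had 347, 335 and 288 counts in siCTRL and 106, 131 and 118 in siSFPQ, a log2 fold change of -1.45 ± 0.122 (edgeR adjusted p = 5.12e-12), close to but not past 1.5. MIR646HG (566 kb) went from 86, 79 and 91 to 42, 50 and 49 counts (-0.86, edgeR adjusted p = 0.000709). MIR4453HG, of 3 kb, had 241, 269 and 247 counts against 139, 156 and 158 (-0.75), and MIR3147HG, of 15.4 kb, 216, 225 and 251 against 125, 161 and 159 (-0.64). These 4 were lower in all 3 siSFPQ libraries than in any siCTRL library. MIR1915HG (6.99 kb) had the highest siCTRL level per length, 325 normalized counts per kb of exon, and a small change from 1364, 1400 and 1189 counts to 1100, 1161 and 1198 (-0.20, edgeR adjusted p = 0.00869), which was lost without siCTRL replicate 2 (0.0673) or siSFPQ replicate 1 (0.0647).

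The 3 other hosts that rose at this level were MIR3936HG, MIR600HG and MIR3677HG, and each lost the call when some single libraries were left out. MIR3936HG had 165, 182 and 157 counts against 200, 239 and 201 (0.34, edgeR adjusted p = 0.0253; 0.0813 without siCTRL replicate 3 and 0.167 without siSFPQ replicate 2). SLC22A5, a carnitine transporter gene that overlaps it on the opposite strand, rose by 1.20. MIR600HG had 48, 74 and 49 against 78, 95 and 79 (0.55, edgeR adjusted p = 0.0312; 0.0564 to 0.146 without siCTRL replicate 1 or 3 or siSFPQ replicate 1 or 2), inside a region where STRBP, on the same strand and sharing 254 exon bases, fell by 1.22. MIR3677HG had 54, 32 and 25 against 59, 62 and 55 (0.66, edgeR adjusted p = 0.0393), and of the 6 fits that leave out a library only the one without siCTRL replicate 1 kept its call, with an adjusted p of up to 0.194 in the others. MIR3667HG (243 kb) and MIR762HG overlapped between the groups, with log2 fold changes of 0.13 and -0.25.

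**Figure D2:**
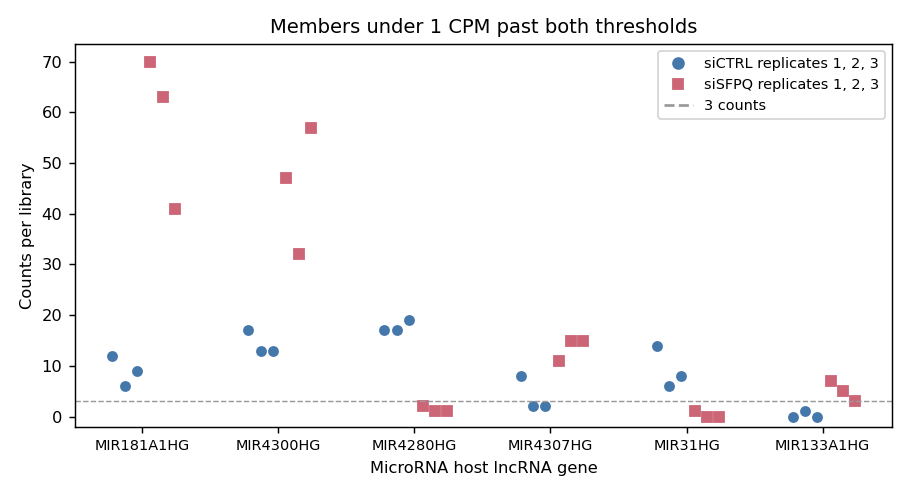
Counts per library of the 6 microRNA host lncRNA genes under 1 CPM that passed the test with a change beyond 1.5 on the log2 scale; circles are siCTRL and squares siSFPQ replicates 1, 2 and 3, and the dashed line marks 3 counts. MIR181A1HG and MIR4300HG rise to between 32 and 70 counts, MIR4280HG and MIR31HG fall to the floor, and MIR133A1HG has at most 7 counts in any library.

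Among hosts under 1 CPM, MIR181A1HG rose most clearly. MIR181A1HG (chr1:198777861-198937471, minus strand, 160 kb), host of miR-181a and miR-181b, had 12, 6 and 9 counts in siCTRL and 70, 63 and 41 in siSFPQ, a log2 fold change of 2.67 ± 0.352 (edgeR adjusted p = 9.84e-08). The second host of the same 2 mature sequences, MIR181A2HG, had 24, 38 and 20 counts against 38, 10 and 21 (-0.24 ± 0.393, edgeR adjusted p = 0.667). MIR4300HG, the longest host at 897 kb, had 17, 13 and 13 counts against 47, 32 and 57 and rose by 1.65 ± 0.336 (edgeR adjusted p = 0.000115). The next longest, MIR3681HG (869 kb), overlapped between the groups with 29, 30 and 28 counts against 30, 20 and 18 (-0.35, edgeR adjusted p = 0.431). Thus 1 of the 2 longest tested hosts rose and the other did not pass the test.

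A lower host under 1 CPM not past 1.5 was MIR663AHG, named after its values were seen. It had 40, 40 and 30 counts in siCTRL and 17, 21 and 15 in siSFPQ (-1.05, edgeR adjusted p = 0.00916). Of its exon 50-mers, 19.9% were found again elsewhere. The other hosts under 1 CPM past both thresholds rest on few counts. MIR4280HG had 17, 17 and 19 counts in siCTRL and 2, 1 and 1 in siSFPQ, which is a 13.3-fold lower sum after scaling by library size (95% exact interval of the ratio 4.90 to 50.6, counting error only), and 1674 of its 5987 exon 50-mers were found again elsewhere. MIR31HG, host of miR-31, had 14, 6 and 8 counts against 1, 0 and 0, a ratio of 28.1 (4.64 to 1149). IFNE, an interferon gene inside it on the same strand, had 2, 4 and 4 counts against 0 in each siSFPQ library. MIR133A1HG had 0, 1 and 0 counts against 7, 5 and 3, a ratio of 14.95 (2.30 to 629; edgeR adjusted p = 0.031, and 0.057 to 0.0802 without siCTRL replicate 1 or 3 or siSFPQ replicate 2). MIR4307HG had 8, 2 and 2 counts against 11, 15 and 15 (1.73, edgeR adjusted p = 0.0285), and again only the fit without siCTRL replicate 1 kept its call, with an adjusted p of up to 0.0985 in the others. The shortest tested hosts, MIR378D2HG (0.949 kb) and MIR219A2HG (1.504 kb), did not pass the test, at 6, 9 and 1 counts against 0, 3 and 2 and at 3, 3 and 0 against 0, 0 and 8.

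Change was then set against gene span. Over the 27 hosts of at least 1 CPM, the Spearman correlation of log2 fold change with span was -0.32. Each siSFPQ library alone, set against the mean of the siCTRL libraries in log2 normalized counts with a small offset, gave -0.37, -0.37 and -0.29. These values share the siCTRL mean and the genes, so they are not separate repeats. Genes are not independent replicates, these share libraries and depth, and no p is given. Over all 51 tested hosts it was -0.19, and over the 24 under 1 CPM -0.07. For comparison it was -0.07 over 1599 other lncRNA genes and -0.30 over 12961 protein-coding genes at the same level. With the exon length in place of span the value over the 27 was -0.30, so these hosts do not separate span from exon length. Exon length gave -0.14 over the protein-coding genes and -0.03 over the other lncRNA genes at that level.

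The 7 hosts of at least 1 CPM over 100 kb had a median log2 fold change of -0.86, and 5 of them were lower and 0 higher. In order of change they were MIR4435-2HG (-2.50), MIR99AHG (-2.08), MIR924HG (-1.45), MIR646HG (-0.86), MIR100HG (-0.44), MIR137HG (0.08) and MIR3667HG (0.13). The 5 that fell are the 5 longest, at 517 to 718 kb, and the other 2 span 116 and 243 kb. At 10 to 100 kb, 3 of 14 were higher and 6 lower with a median of -0.29, and under 10 kb 2 of 6 were higher and 3 lower with a median of -0.10. Over all genes at that level, 16.6% were higher and 62.3% lower over 100 kb, 35.3% and 30.04% at 10 to 100 kb, and 29.4% and 22.3% under 10 kb. Order within the long class did not follow span strictly, since MIR100HG at 528 kb fell by 0.44 and MIR4435-2HG at 517 kb by 2.50.

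**Figure D3:**
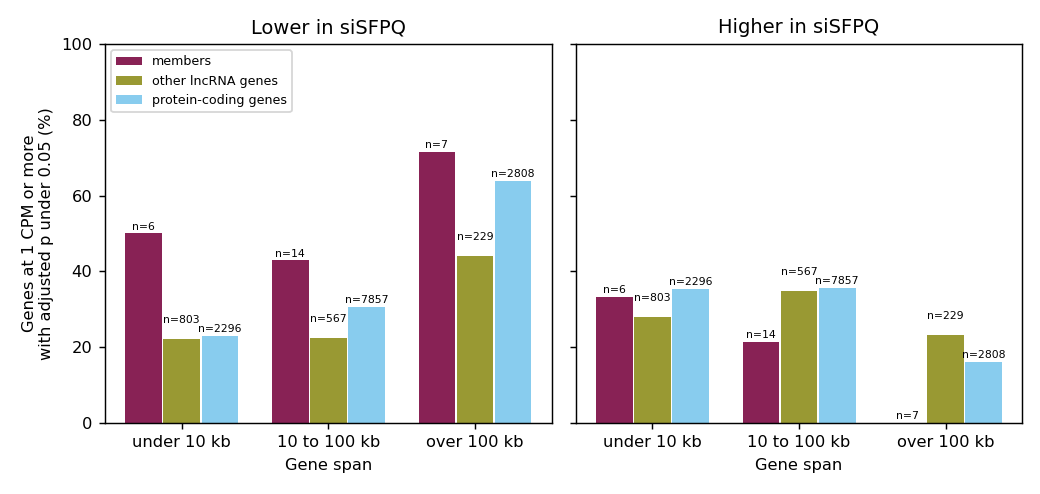
Percentage of genes of at least 1 CPM with an adjusted p under 0.05 that were lower (left) or higher (right) in siSFPQ, by gene span, for microRNA host lncRNA genes, other lncRNA genes and protein-coding genes; n is the number of genes. Over 100 kb, 71.4% of 7 hosts, 44.1% of 229 other lncRNA genes and 63.9% of 2808 protein-coding genes were lower, and 0 of the 7 hosts was higher.

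A tilt with span was also present in the background. Among other lncRNA genes of at least 1 CPM, 44.1% of the 229 over 100 kb were lower (median -0.23), against 22.04% of the 803 under 10 kb. Among protein-coding genes over 100 kb, 63.9% of 2808 were lower with a median of -0.35. Protein-coding genes with an annotated microRNA gene inside had 69.7% of 307 lower over 100 kb, a median of -0.52 and a correlation with span of -0.49 over 781 genes. The long class held only 7 hosts, and no test between the classes was made. Restricting to the 23 tested hosts whose exons share no base with another gene other than a microRNA gene, a choice made after seeing the data, gave a correlation of 0.07, and 0.02 over the 9 of them at 1 CPM or more, of which only MIR646HG and MIR3667HG exceed 100 kb.

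MicroRNA genes inside the hosts have their own rows in the count table. Of 131 such rows on the strand of their hosts, in 81 hosts, 20 had a count in any library. Among hosts of at least 1 CPM, 27 microRNA genes lie wholly in a host exon and only 1 of them (MIRLET7C, 2 counts in total) had a count, whereas 9 of 21 outside host exons did, with 122 counts in all. The largest row was MIR221, partly in an exon of MIR222HG, with 12, 6 and 15 counts in siCTRL and 11, 11 and 19 in siSFPQ, so its groups overlapped. In libraries of poly(A) RNA such counts do not measure the mature microRNA. How reads in an exon shared by a host and its microRNA gene were assigned is not given in the sources used here. Rows wholly in host exons can therefore not be compared with those outside them.

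The machinery that processes these transcripts was read from a list of 30 genes, all of them tested. Of these, 5 were higher, 13 lower and 12 did not pass the test, and the median log2 fold change was -0.08. Over all genes tested, 22.4% were higher and 22.1% lower, with a median of 0.02. All genes of the list except LIN28A were above 1 CPM. At 1 CPM or more, 30.2% of all genes were higher and 34.4% lower. Lower genes over 100 kb include DROSHA (132 kb), AGO2 (115 kb), AGO3 (142 kb), LIN28B (147 kb) and DIS3L2 (383 kb). Of all genes of that span at 1 CPM or more, 16.6% were higher and 62.3% lower. DGCR8 (31.7 kb) and DICER1 (71.8 kb) were shorter and also lower, while TUT4 (145 kb) and XRN1 (141 kb) did not pass the test. A link of the list to span was not tested. DROSHA, the nuclease of the first step, had 5810 ± 71.8 normalized counts in siCTRL and 4318 ± 307 in siSFPQ (SD, n = 3), a log2 fold change of -0.43 ± 0.0436 (edgeR adjusted p = 4.37e-10). Its partner DGCR8 changed by -0.20 (edgeR adjusted p = 0.000647), the second nuclease DICER1 by -0.12 (edgeR adjusted p = 0.0191) and AGO2 by -0.17 (edgeR adjusted p = 0.00066), each lower in normalized counts in every siSFPQ library than in any siCTRL library.

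LIN28B, DIS3L2, AGO3 and LIN28A were the genes of the list past the test with a change of at least 0.5 on the log2 scale. LIN28B, which blocks the processing of let-7 precursors, had 807, 851 and 827 counts in siCTRL and 326, 343 and 326 in siSFPQ. It fell by 1.32 (edgeR adjusted p = 7.4e-16). In the same libraries 4 of the 6 let-7 hosts were lower, beside 34.4% of all genes at 1 CPM or more, and a link was not tested. LIN28B (147 kb) and the lower hosts MIR99AHG (718 kb) and MIR100HG (528 kb) exceed 100 kb. Of all genes over 100 kb at 1 CPM or more, 62.3% were lower. DIS3L2, the exonuclease that degrades the let-7 precursors marked through LIN28, fell by 0.58 (edgeR adjusted p = 2.78e-09), and AGO3 by 0.53 (edgeR adjusted p = 9.01e-11). LIN28A was at 0 in every siCTRL library and had 7, 4 and 2 counts in siSFPQ, so it passed the filter through siSFPQ alone. It was the 1 gene of the list past 1.5, and the call was lost without siSFPQ replicate 1 or 2. No gene of the list was lower past 1.5 with edgeR or DESeq2, although each tool called 13 lower at an adjusted p under 0.05. XPO5, the exporter of the hairpins, rose by 0.21 (edgeR adjusted p = 2.53e-05). TUT4 and TUT7, which add uridines to let-7 precursors, had values of -0.08 and 0.02 and did not pass the test, nor did the exonuclease gene XRN1 at 0.12.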

How the data were processed

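RNA sequencing of U-2 OS cells was compared between siCTRL and siSFPQ with 3 replicates each. The authors checked reads with FastQC, quantified them with STAR 2.7.9a on GRCh38 and deposited raw counts per Ensembl gene. They describe the libraries as stranded, and the strand setting of the counting is not given in the sources used here. Groups and replicate numbers came from the column names, and of the columns with per-sample values 0 remained unused. The labels name replicates only, so p-values measure the spread between these samples.

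Of 60664 genes, 60463 were matched by identifier to GENCODE 44, a later release than that of the authors, so spans may differ. The main test was that of edgeR 4.0.16 under R 4.3.3 on 29022 genes with at least 10 counts in total (TMM, quasi-likelihood, no covariates, Benjamini-Hochberg over all genes tested). Calls used an adjusted p under 0.05, and in addition a log2 fold change past 1.5 in either direction. Normalized counts are counts divided by effective library size. Named hosts are those of at least 1 CPM, those below it past both thresholds, and the 2 shortest and 2 longest tested; other hosts and neighbours were added to compare with them. Members, lists and alternatives were chosen with earlier results of these data known. Host exon 50-mers were searched on both strands of the reference chromosomes. On simulated counts with 200 genes changed by a log2 fold of 2, edgeR recovered 199 with 0 others among 28182 genes tested, and DESeq2 1.42.0 recovered 198 with 0 others among 29021. Replicates of a group differed by more than sampling noise (chi-square over its degrees of freedom, 4.07 to 5.96). Alternatives were DESeq2, other normalizations, filters, thresholds and span limits, a replicate block, exon length, and each library left out.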

Additional observations from a re-analysis of the deposited data

How the results depend on the processing

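The fall of SFPQ kept its direction and call under every alternative. The number of lower hosts past the test stayed within 1.5-fold of its main value under every alternative fitted to all hosts. Single lower hosts did lose their call with a library left out, namely MIR17HG, MIRLET7BHG and MIR1915HG among those examined. Of 36 hosts examined 22 kept the same call under every alternative. With DESeq2 the higher hosts numbered 4 in place of 10, and 2 in place of 4 past 1.5. Leaving out 1 library in turn gave 5 to 8 higher hosts, 2 to 3 past 1.5, 0 to 1 higher genes of the microRNA pathway list past 1.5 and a correlation with span of -0.39 to -0.29 over hosts of at least 1 CPM; filterByExpr also gave 0 for that list. A limit of 200 kb in place of 100 kb moved the median of long hosts from -0.86 to -1.16. The planned restriction to hosts that overlap no other gene left no host, so hosts whose exons share no base with another gene other than a microRNA gene were used instead, chosen after seeing the data; this gave 4 higher and 6 lower, 2 lower past 1.5, correlations of 0.0711 (tested) and 0.0167 (at least 1 CPM), and a median of -0.37 over 2 long hosts, with fewer genes by construction. Values near 0 changed sign: MIR210HG (-0.0036 with no filter and -0.23 to 0.15 with a library left out), MIR137HG (-0.072 to 0.20), MIRLET7IHG (-0.31 to 0.23) and MIR219A2HG (-0.17 to 0.95); the cause was not tested. With library size alone, MIR1915HG lost its call (adjusted p = 0.0755) and MIR222HG gained one (0.0476), while the median of all genes moved by 0.0632.

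Deviations of same-numbered libraries correlated only weakly, at -0.0251, 0.0697 and 0.0355. Replicates 2 and 3 of siCTRL matched their own number best, while siCTRL replicate 1 correlated better with siSFPQ replicate 3 (0.0347) than with its own number. These values do not settle whether the samples were paired. With the replicate block, 10 hosts were higher and 17 lower, 4 and 5 of them past 1.5; MIR219A2HG turned to -0.35 and MIR133A1HG had an adjusted p of 0.0691, which was 0.0619 with DESeq2 and 0.0502 with no filter. The block gave 7 higher and 13 lower genes of the pathway list and correlations with span of -0.17 (tested) and -0.32 (at least 1 CPM).

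Depth limits the hosts under 1 CPM, where 3 counts set the floor, and exons shared with neighbours or repeated elsewhere limit the level of several hosts.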

Other observations

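The snoRNA host lncRNA genes, another class of noncoding genes that carry small RNAs, had more higher than lower calls in the same libraries. Of 27 SNHG genes tested, 14 were higher and 4 lower, with a median log2 fold change of 0.24. Past 1.5, 0 were higher and 1 lower, beside 5.54% and 4.77% of all genes. The microRNA hosts had 10 higher and 17 lower of 51, and of all genes tested 22.4% were higher and 22.1% lower. At 1 CPM or more, 14 of 22 SNHG genes were higher and 3 lower, against 5 and 14 of 27 hosts. The shares of all genes at that level were 30.2% and 34.4%. The difference between SNHG genes and microRNA hosts was not tested. SNHG genes are also shorter, with a median span of 6.82 kb against 36.2 kb for the tested microRNA hosts. Among 908 tested genes with LINC symbols, 166 were higher and 161 lower, or 18.3% and 17.7%, beside 22.4% and 22.1% of all genes.

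Of the 32 microRNA hosts too low to test, 23 had a count in at least 1 library. MIR3142HG, which contains miR-146a and was named after its values were seen, had 19, 11 and 17 counts in siCTRL and 29, 14 and 36 in siSFPQ (log2 fold change 0.74, edgeR adjusted p = 0.139), and MIR155HG had 3, 16 and 10 against 8, 8 and 7. Both are hosts of microRNAs known from inflammatory signalling, and their groups overlapped.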
